A study of Mus musculus with 6 samples.

Results

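The expression of 9 genes of the Wnt and BMP signals that pass from the stroma of the gut to its epithelium was followed in the colon of mice prone to obesity (OP) and mice resistant to it (OR). They are the Wnt ligands *Wnt2b* and *Wnt4*, the R-spondins *Rspo1* and *Rspo3*, the secreted Wnt inhibitor *Sfrp1*, the BMP ligands *Bmp2* and *Bmp4* and the BMP antagonists *Grem1* and *Chrdl1*. The 9 genes were chosen by symbol from the 17778 genes of the deposited table, and all 9 were in it. *Wnt2b* and *Sfrp1*, a ligand and an inhibitor of the same pathway, had lower values in all 3 OP mice than in all 3 OR mice, a pattern seen in 6.81% of all genes tested. *Grem1* and *Chrdl1* were high in a single OP mouse and low in the other 2, and *Bmp2*, *Bmp4*, *Rspo1*, *Rspo3* and *Wnt4* overlapped between the groups. Of the 7 members that could be tested, 0 were called at a q-value below 0.2 over all genes, where 0.0222% of the genes tested were called lower in OP mice and 0 higher.

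All 6 mice were wild-type C57BL/6J mice on a high-fat diet, so that both groups share the strain, the genotype and the diet. According to the methods they were males, fed the diet for 16 weeks and 21 weeks old at tissue collection, and 42 mice had been fed it. The 10 with the largest weight gain were defined as OP and the 10 with the smallest as OR, so the groups are ends of one distribution of weight gain and not treatments. RNA of colon tissue was measured in 3 OP and 3 OR samples, each taken here as 1 mouse. The labels number the samples but do not name the animals, so p-values measure only the spread between these samples. The values are FPKM, fragments scaled for the length of the transcript and for the sequenced total, which allow levels of different genes to be compared. They carry no read totals, so the depth behind them is unknown.

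Wnt ligands bind Frizzled and Lrp receptors and keep the stem cells at the crypt base dividing, and R-spondins strengthen this signal by binding Lgr receptors and clearing the ubiquitin ligases Rnf43 and Znrf3 that remove Frizzled. BMP ligands act in the opposite sense along the crypt and favour differentiation, and antagonists such as gremlin 1 and chordin-like 1 hold BMP away from the crypt base. In the gut the Wnt2b, R-spondin, gremlin 1 and Sfrp1 transcripts are known mainly from fibroblasts and muscle cells, whereas Bmp2 is also made by differentiated epithelial cells.

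The labelled tissue was checked by its markers. *Cdx2*, an intestinal transcription factor, lay between 179.5 and 245.73 FPKM in the 6 mice. Of the 5 markers of the small intestine, the lactase *Lct* was at 0.05 FPKM or below in every mouse and *Apoa4* was at most 4.02 FPKM. The other 3 were present, with 0.08 to 10.06 FPKM for *Sis*, 1.03 to 74.19 for *Fabp6* and 25.74 to 59 for *Alpi*. OP 2 stood apart in *Hoxb13* and *Hoxa13*. *Hoxb13*, a posterior Hox gene, was at 46.88 FPKM in OP 2 and between 0 and 1.29 in the other 5 mice. *Hoxa13* was at 29.54 FPKM in OP 2 and between 0.27 and 3.58 in the others. Both genes were chosen after their values had been seen, and the part of the colon sampled is not given in the labels. The results of the members that passed the filter are therefore given with and without OP 2, as are those of several gene lists. OP 1 was unusual in another way, with the lowest limma array weight (0.332, against 0.640 to 2.21 in the other mice). Its size factor for median-of-ratios scaling was also the lowest (0.803, against 0.983 to 1.11). Several results are therefore also given without OP 1. Tests across genes were made by limma-trend on log2(FPKM + 1) over 13520 genes with at least 0.5 FPKM in at least 3 mice, with Benjamini-Hochberg adjustment (q-values), and a log2 fold change is OP minus OR. Calls required a q-value below 0.2 together with a fold change that was 1.2 or more, or 0.83 or less. At an unadjusted p below 0.05, 3.53% of all genes tested were lower in OP mice and 0.503% higher. Values of single mice are listed in the order of replicates 1, 2 and 3.

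The levels of the 9 genes in OR mice ran from 9.77 ± 0.956 FPKM (SD, n = 3) for *Bmp4* through 7.89 ± 2.76 for *Bmp2*, 6.65 ± 1.73 for *Sfrp1*, 5.22 ± 1.97 for *Grem1*, 2.34 ± 0.539 for *Chrdl1*, 2.34 ± 0.395 for *Wnt2b*, 1.49 ± 0.0551 for *Rspo3* and 0.587 ± 0.424 for *Rspo1* to 0.493 ± 0.193 for *Wnt4*. Neighbours in this order overlapped between mice, except that all values of *Grem1* lay above all of *Chrdl1*, all of *Wnt2b* above all of *Rspo3* and all of *Rspo3* above all of *Rspo1*. In OP mice the order was 10.9 ± 6.02 FPKM (SD, n = 3) for *Bmp2*, 6.80 ± 2.07 for *Bmp4*, 6.38 ± 8.06 for *Grem1*, 2.81 ± 0.977 for *Sfrp1*, 1.95 ± 1.78 for *Chrdl1*, 1.497 ± 0.734 for *Rspo3*, 0.900 ± 0.360 for *Wnt2b*, 0.507 ± 0.459 for *Wnt4* and 0.457 ± 0.268 for *Rspo1*. All neighbours in this order overlapped. *Wnt2b* and *Rspo3* changed places: *Wnt2b* was the higher in each of the 3 OR mice and *Rspo3* in each of the 3 OP mice, a comparison that was chosen after the values were seen and was not tested.

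**Figure D1:**
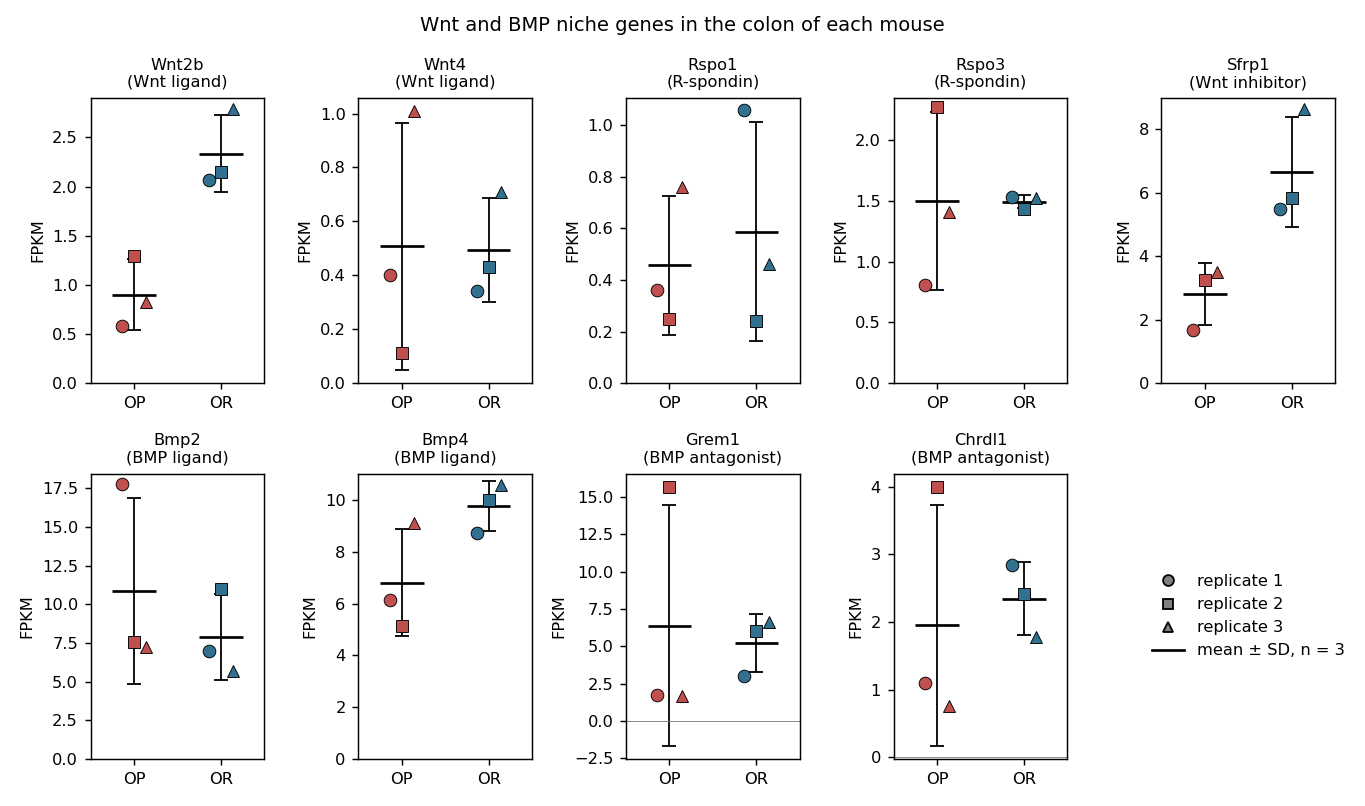
FPKM of the 9 genes in each mouse, 1 panel a gene with its own linear axis, OP mice in red and OR mice in blue, with symbols for the replicate numbers and the mean ± SD of each group (n = 3). In *Wnt2b* and *Sfrp1* the groups lay apart, and OP 2 was the highest mouse in *Grem1* (15.69 FPKM), *Chrdl1* (4 FPKM) and *Rspo3* (2.27 FPKM).

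*Wnt2b* encodes a canonical Wnt ligand of the gut mesenchyme. Its FPKM was 0.58, 1.29 and 0.83 in OP mice, against 2.07, 2.15 and 2.79 in OR mice. The highest OP mouse lay below the lowest OR mouse, and the OR mean was 2.60 times the OP mean. OP and OR mice differed by -0.82 on the log2 scale (standard error 0.20, 95% interval -1.30 to -0.35), with an unadjusted limma-trend p of 0.00442 and an adjusted p of 0.798. The two-sided exact permutation test gave p = 0.1, and groups of this size allow none lower. Since the added 1 is large beside these values, the log2 fold change understates the difference in FPKM. Without OP 2 it was -0.97 (standard error 0.22, adjusted p = 0.772 by limma-trend). In bulk tissue, fewer cells of a type cannot be told apart from less RNA per cell.

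The promoters of *Wnt2b*, *Bmp4* and *Grem1* are shown, because *Wnt2b* and *Bmp4* had lower means in OP mice and *Grem1* varied most between mice. Each sequence is the 250 bases before the RefSeq start of the gene on GRCm38.p6, an older build than the GRCm39 named for the deposited values, 5′ to 3′ on the strand of the gene. Capitals mark matches to GGGCGG, the GC box bound by Sp1-type factors, on either strand, and neighbouring matches can overlap.
Wnt2b, chr3:104961710-104961959, minus strand: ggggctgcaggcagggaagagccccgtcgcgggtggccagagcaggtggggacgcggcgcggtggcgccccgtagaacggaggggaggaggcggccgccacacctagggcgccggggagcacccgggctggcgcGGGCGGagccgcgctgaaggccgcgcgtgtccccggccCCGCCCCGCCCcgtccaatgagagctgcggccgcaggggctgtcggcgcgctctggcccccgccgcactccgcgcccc
Bmp4, chr14:46390670-46390919, minus strand: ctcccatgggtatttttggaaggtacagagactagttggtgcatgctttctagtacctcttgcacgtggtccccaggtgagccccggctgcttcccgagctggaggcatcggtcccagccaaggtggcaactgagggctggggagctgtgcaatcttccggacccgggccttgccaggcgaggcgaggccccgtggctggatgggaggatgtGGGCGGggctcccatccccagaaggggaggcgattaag
Grem1, chr2:113758649-113758898, minus strand: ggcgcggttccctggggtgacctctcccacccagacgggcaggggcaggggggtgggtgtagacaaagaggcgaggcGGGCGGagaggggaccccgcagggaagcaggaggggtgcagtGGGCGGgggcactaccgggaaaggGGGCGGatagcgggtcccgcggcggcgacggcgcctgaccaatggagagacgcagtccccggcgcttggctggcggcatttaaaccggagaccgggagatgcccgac

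The *Wnt2b* stretch held 3 GC boxes and 36 CpG dinucleotides, the *Bmp4* stretch 1 and 11, and the *Grem1* stretch 3 and 24. Among 32851 promoters in the table, 32.7% held GGGCGG within the same length, and the median number of CpG was 6. The TCF/LEF core CTTTG, which lies in the binding site of the nuclear factors of the Wnt pathway, was found once in *Grem1* and not in *Wnt2b* or *Bmp4*, and in 48.6% of all promoters. The GC-rich Smad element GGCGCC was found 2 times in *Wnt2b*, 1 time in *Grem1* and not in *Bmp4*, and in 9.59% of all. The Gli site GACCACCCA was in none of these stretches and in 0.225% of all promoters, and TATAAA was in none of them and in 12.4% of all. All motifs were searched on both strands, and a match is a description of the letters only. *Rspo1* and *Wnt4* also had an entry in the table, and *Rspo3*, *Bmp2*, *Chrdl1* and *Sfrp1* were not matched.

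*Wnt4*, a Wnt ligand known from mesenchymal and epithelial tissues, was low. Its FPKM was 0.4, 0.11 and 1.01 in OP mice, against 0.34, 0.43 and 0.71 in OR mice. The OP mice held both the lowest and the highest value, so the groups overlapped. *Wnt4* and *Rspo1* had 0.5 FPKM or more in only 2 mice each and did not pass the filter on low values. Fitted without the filter, *Wnt4* differed by -0.02 on the log2 scale (standard error 0.22), with an adjusted limma-trend p of 0.990.

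Of the 19 Wnt ligand genes, 14 were in the table, 7 of these were listed at 0 in at least 1 mouse and 4 passed the filter. The 4 were *Wnt2b*, *Wnt5a*, *Wnt5b* and *Wnt11*, all had log2 fold changes below 0, and *Wnt2b* alone had an unadjusted p below 0.05. Their median was -0.41, and -0.14 without OP 2. *Wnt5a*, a non-canonical Wnt ligand, had the highest mean of the family, with 1.14, 0.3 and 5.02 FPKM in OP mice, against 3.65, 2.52 and 2.63 in OR mice. The OP mice lay on both sides of the OR mice, and the difference was -0.61 on the log2 scale (standard error 0.51, adjusted p = 0.945 by limma-trend). *Wnt2b* made up 14.7%, 39.5% and 8.03% of the summed FPKM of all Wnt ligands in OP mice, against 21.6%, 26.8% and 30.8% in OR mice. This share overlapped between the groups, unlike the level of *Wnt2b* itself.

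*Rspo3* encodes an R-spondin made by stromal and lymphatic endothelial cells. Its FPKM was 0.81, 2.27 and 1.41 in OP mice, against 1.53, 1.43 and 1.52 in OR mice. The OR mice lay close together and the OP mice spread around them. The difference was -0.04 on the log2 scale (standard error 0.24, 95% interval -0.60 to 0.52, adjusted p = 0.984 by limma-trend). With median-of-ratios scaling it was 0.03 and so on the other side of 0. Without OP 2 it was -0.26, and the 2 remaining OP mice lay below all OR mice.

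*Rspo1*, the second R-spondin, had 0.36, 0.25 and 0.76 FPKM in OP mice, against 1.06, 0.24 and 0.46 in OR mice. Its highest and its lowest value were both in OR mice. Without the filter it differed by -0.11 on the log2 scale (standard error 0.21, adjusted p = 0.951 by limma-trend). Of the R-spondins, their Lgr receptors and the ligases *Rnf43* and *Znrf3*, 5 of 9 genes passed the filter, 4 of them with a log2 fold change below 0 and 0 with an unadjusted p below 0.05. *Lgr4*, the most abundant gene of this list and the R-spondin receptor found along the whole crypt, had 21.53, 39.77 and 30.3 FPKM in OP mice, against 31.11, 22.54 and 23.31 in OR mice. *Rspo2* was between 0.11 and 0.52 FPKM, and *Rspo4* was listed at 0 in all OP mice, OR 1 and OR 2.

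*Sfrp1* encodes a secreted Frizzled-related protein that binds Wnt ligands outside the cell. Its FPKM was 1.69, 3.25 and 3.49 in OP mice, against 5.49, 5.82 and 8.64 in OR mice. The groups did not overlap, with the lowest value in OP 1 and the highest in OR 3, and the OR mean was 2.37 times the OP mean. On the log2 scale the difference was -1.02 (standard error 0.27, 95% interval -1.65 to -0.38), with an unadjusted limma-trend p of 0.00642 and an adjusted p of 0.805. The exact permutation p was again 0.1, and without OP 2 the log2 fold change became -1.12 (standard error 0.31, adjusted p = 0.772 by limma-trend).

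Among the 11 secreted Wnt inhibitors, 9 were in the table and 5 passed the filter. The median log2 fold change of the 5 was 0.00, or -0.25 without OP 2. *Sfrp1* and *Dkk3*, a Dickkopf family protein, both had groups that did not overlap, and *Sfrp5*, *Frzb* and *Wif1* had log2 fold changes between 0.00 and 0.08. *Dkk3* had 5.53, 7.77 and 7.47 FPKM in OP mice, against 11.05, 8.98 and 12.1 in OR mice, a log2 fold change of -0.57 (standard error 0.20, adjusted p = 0.945 by limma-trend). *Sfrp1* took 18.4%, 20.6% and 18.5% of the summed FPKM of the secreted inhibitors in OP mice, against 25.8%, 33.0% and 34.8% in OR mice. This share did not overlap between the groups, whereas that of *Dkk3* did, with 39.5% to 60.2% in OP mice, against 48.8% to 51.8% in OR mice.

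On the receiving side, all 15 Frizzled, Lrp, Ror and Ryk receptor genes passed the filter, and 14 had a log2 fold change below 0 with a median of -0.27. Over all 13520 genes tested the median was -0.10 and 70.1% of genes were below 0. Without OP 1 the median was -0.01 both for the receptors and for all genes. *Fzd4*, a Frizzled receptor prominent in vessels, was the one receptor with an unadjusted p below 0.05 (log2 fold change -0.50, standard error 0.19, adjusted p = 0.945 by limma-trend). *Fzd5*, the most abundant receptor of the list, differed by -0.01 (standard error 0.19).

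The 13 Wnt target genes tested, of 14 listed, all had log2 fold changes below 0, with a median of -0.43, and 0 had an unadjusted p below 0.05. *Axin2*, the feedback scaffold that is induced by the pathway in most tissues, had 2.41, 12.68 and 12.21 FPKM in OP mice, against 14.73, 5.88 and 12.84 in OR mice. OP 1 was the lowest mouse and the others overlapped. Without OP 1, the median log2 fold change of the target genes was -0.17, against -0.01 over all genes. Without OP 2 it was -0.64, against -0.12 over all genes. *Ccnd1*, the most abundant target, was at 12.87 FPKM in OP 1 and between 30.7 and 39.09 in the other 5 mice.

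*Bmp4*, a BMP ligand of the subepithelial mesenchyme, had 6.15, 5.14 and 9.12 FPKM in OP mice, against 8.71, 10.02 and 10.57 in OR mice. OP 1 and OP 2 lay below all OR mice and OP 3 lay above the lowest of them. The log2 fold change was -0.49 (standard error 0.22, 95% interval -1.02 to 0.03, adjusted p = 0.945 by limma-trend), with an unadjusted p of 0.0619. Without OP 2 it was -0.34.

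*Bmp2*, the second BMP ligand, had 17.8, 7.54 and 7.23 FPKM in OP mice, against 7, 10.99 and 5.68 in OR mice. OP 1 was the highest mouse, and the other 2 OP mice lay among the OR mice. The log2 fold change was 0.35 (standard error 0.37, 95% interval -0.52 to 1.22, adjusted p = 0.945 by limma-trend). It was -0.04 without OP 1 and 0.53 (standard error 0.41) without OP 2. *Krt20*, a keratin of differentiated colonocytes, was also highest in OP 1, with 1299.6, 936.93 and 406.31 FPKM in OP mice, against 403.13, 976.24 and 500.01 in OR mice. Other markers of colon epithelium did not share this order, since *Car1* was highest in OR 2 and *Slc26a3* and *Aqp8* were highest in OP 2. The mean deviation of the 10 epithelial markers was lowest in OP 1, at -0.32 on the log2 scale. This mean includes the goblet cell gene *Muc2*, at 17.59 FPKM in OP 1 and between 154.44 and 933.17 in the other mice. The part of the epithelium in the *Bmp2* result was not tested.

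All 8 BMP ligand genes passed the filter, 5 with a log2 fold change below 0 and 3 above, and 0 with an unadjusted p below 0.05. Their median was -0.34, or -0.085 without OP 2. *Bmp3*, the most abundant of them, was high in OP 3 and OR 1, at 48.68 and 44.15 FPKM, and between 11 and 20.94 in the other 4 mice. *Bmp4* took 11.7% to 13.96% of the summed FPKM of the BMP ligands in OP mice, against 12.7% to 20.6% in OR mice.

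*Grem1* encodes gremlin 1, which binds BMP ligands and marks muscle and fibroblasts near the crypt base. Its FPKM was 1.76, 15.69 and 1.69 in OP mice, against 2.97, 6.03 and 6.65 in OR mice. OP 2 was 2.36 times the highest other mouse and 9.10 times the mean of the other 2 OP mice, which were the lowest of all. The mean FPKM was therefore higher in OP mice, at 6.38 ± 8.06 (SD, n = 3) against 5.22 ± 1.97 (SD, n = 3), while the log2 fold change was -0.26 (standard error 0.70, 95% interval -1.89 to 1.37, adjusted p = 0.963 by limma-trend). Without OP 2, both OP mice lay below all OR mice, the log2 fold change was -1.13 (standard error 0.33, 95% interval -1.91 to -0.35), the unadjusted p was 0.0111 and the adjusted p was 0.772.

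*Chrdl1*, chordin-like 1, is a second secreted BMP antagonist of the same stroma. Its FPKM was 1.09, 4 and 0.76 in OP mice, against 2.84, 2.42 and 1.77 in OR mice. As in *Grem1*, OP 2 was the highest mouse and OP 1 and OP 3 were the lowest. The log2 fold change was -0.33 (standard error 0.39, 95% interval -1.24 to 0.59, adjusted p = 0.945 by limma-trend) and -0.79 (standard error 0.24, unadjusted p = 0.0132, adjusted p = 0.772 by limma-trend) without OP 2. OP 2 is also the mouse with the high *Hoxb13* and *Hoxa13* values, whose part in the result was not tested.

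**Figure D2:**
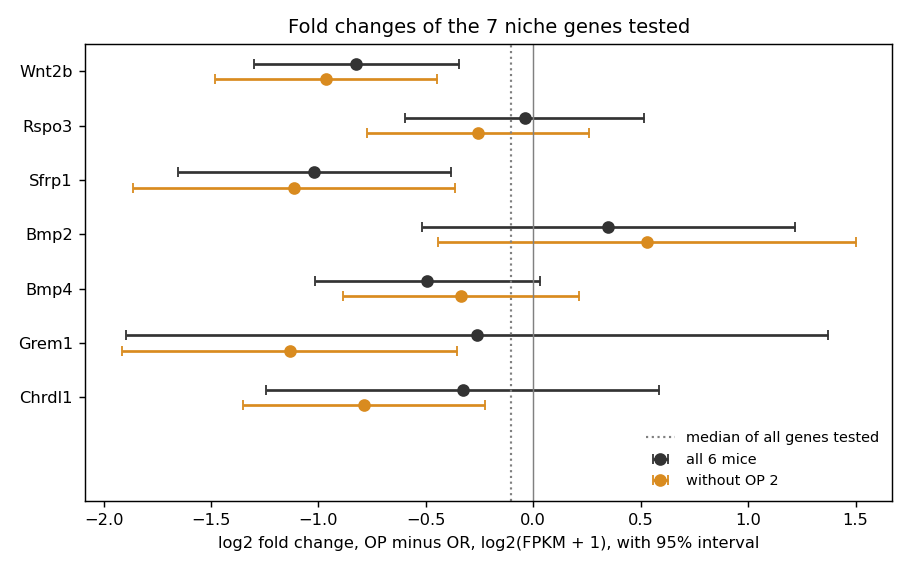
Log2 fold changes, OP minus OR, on the log2(FPKM + 1) scale of the 7 members tested, with 95% intervals from limma-trend for all 6 mice (dark) and without OP 2 (orange). The intervals of *Wnt2b* and *Sfrp1* lay below 0 in both fits, and those of *Grem1* and *Chrdl1* only without OP 2.

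Of the 12 BMP antagonists listed, 11 passed the filter and 10 had a log2 fold change below 0, with a median of -0.35, or -0.19 without OP 1. *Fstl1*, a follistatin-like glycoprotein of mesenchymal cells, had 5.72, 7.17 and 7.3 FPKM in OP mice, against 11.11, 10.39 and 12.34 in OR mice, a log2 fold change of -0.67 (standard error 0.17, adjusted p = 0.798 by limma-trend). *Twsg1*, which acts with chordin on BMP ligands, differed by -0.35 (standard error 0.14, adjusted p = 0.945 by limma-trend), and neither gene overlapped between the groups. *Nbl1*, the most abundant antagonist of the list, overlapped between the groups, with 23.81 FPKM in OP 2 as its lowest value.

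Of 9 receptor and Smad genes of the BMP pathway tested, 7 had a log2 fold change below 0, the median was -0.18, or -0.0099 without OP 1, and 0 had an unadjusted p below 0.05. *Bmpr1a*, the type I receptor with the highest level, had -0.18 (standard error 0.20, adjusted p = 0.945 by limma-trend). Among the BMP target genes, 7 of 9 were tested, 3 were below 0 and 4 above, and the median was 0.11, which became -0.05 without OP 2. *Id1*, the most abundant target, lay between 149.9 and 269.5 FPKM in OP mice and between 183.12 and 193.36 in OR mice.

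**Figure D3:**
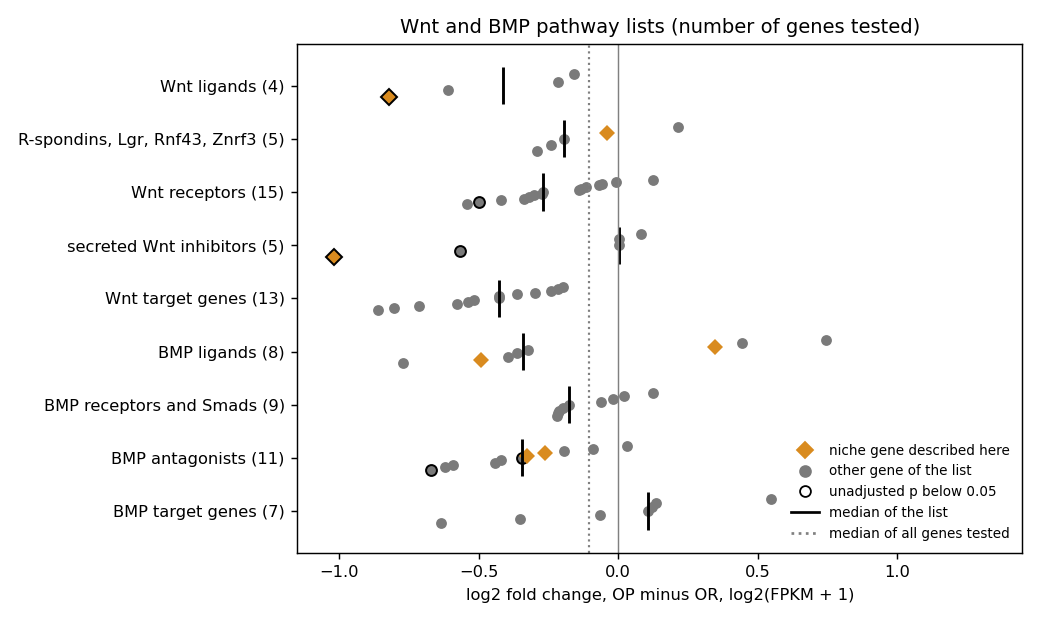
Log2 fold changes, OP minus OR, on the log2(FPKM + 1) scale of each tested gene of the 9 pathway lists, with the number of genes tested in brackets. Diamonds are the members, black rims mark an unadjusted p below 0.05, bars are list medians and the dotted line is the median of all genes (-0.10). With all 6 mice, the medians of 7 of the 9 lists lay below that line.

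Counted over the 7 members tested, 0 were called at a q-value below 0.2, as given above. At an unadjusted p below 0.05, 2 members were lower in OP mice, against 3.53% of all genes, and 0 were higher, against 0.503%. The 2 were *Wnt2b* and *Sfrp1*. The same 2 members had every OP mouse below the OR mice, against 6.81% of all genes, and 0 had the reverse, against 1.63%. The log2 fold change was below 0 in 6 members, against 70.1% of all genes, and the median of the 7 was -0.33. Without OP 2 the counts were 4 members at an unadjusted p below 0.05, against 4.53% of all genes, and 5 with no overlap, against 15.4%, all lower in OP mice. None was higher by either measure, against 1.27% and 5.78% of all genes, and 6 had a log2 fold change below 0, against 68.5%. By limma-trend 0 of the 7 were called, against 0.0074% of all genes. The 2 added by p were *Grem1* and *Chrdl1*. OP 2 was the highest mouse in these 2 and in *Rspo3*, so leaving it out lowers the OP values of all 3. The counts without OP 2 were added after the values had been seen. The members that passed the filter are few and were chosen with earlier results of these data known.

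Of the other 69 pathway genes tested, 55 had a log2 fold change below 0, 4 had an unadjusted p below 0.05, all lower in OP mice, and 0 were called. The 4 were *Fstl1*, *Dkk3*, *Fzd4* and *Twsg1*, a share of 5.8% beside the 3.53% of all genes.

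Ratios between members within a mouse do not depend on how the mice were scaled to each other. The summed FPKM of the R-spondins over that of *Sfrp1* was 0.692, 0.775 and 0.622 in OP mice, against 0.472, 0.287 and 0.229 in OR mice. The groups did not overlap and OP mice were higher, by 1.14 on the log2 scale, with an exact permutation p = 0.1 (two-sided), which is the lowest possible, and an adjusted p of 0.7 over the 7 ratios examined. *Rspo3*, the larger part of the sum in every mouse, had means of 1.497 FPKM in OP mice and 1.493 in OR mice. The difference in this ratio therefore mostly repeats the lower *Sfrp1* of OP mice, and *Rspo1* had not passed the filter. The corresponding ratio of the Wnt ligands *Wnt2b* and *Wnt4* to *Sfrp1* stayed within 0.405 and 0.580 in all 6 mice, and its difference of 0.25 on the log2 scale had an exact permutation p = 0.3.

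On the BMP side, the ratio of *Grem1* to the summed BMP ligands was 0.0735, 1.24 and 0.103 in OP mice, against 0.189, 0.287 and 0.409 in OR mice. OP 2 was the one mouse in which *Grem1* exceeded *Bmp2* and *Bmp4* together, and the other 2 OP mice had the lowest ratios of all. The difference was -0.41 on the log2 scale with all mice and -1.69 without OP 2. *Bmp4* over *Bmp2* was 0.346, 0.682 and 1.26 in OP mice, against 1.24, 0.912 and 1.86 in OR mice, which overlapped by OP 3. *Grem1* over *Chrdl1* stayed between 1.05 and 3.92 in all 6 mice.

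**Figure D4:**
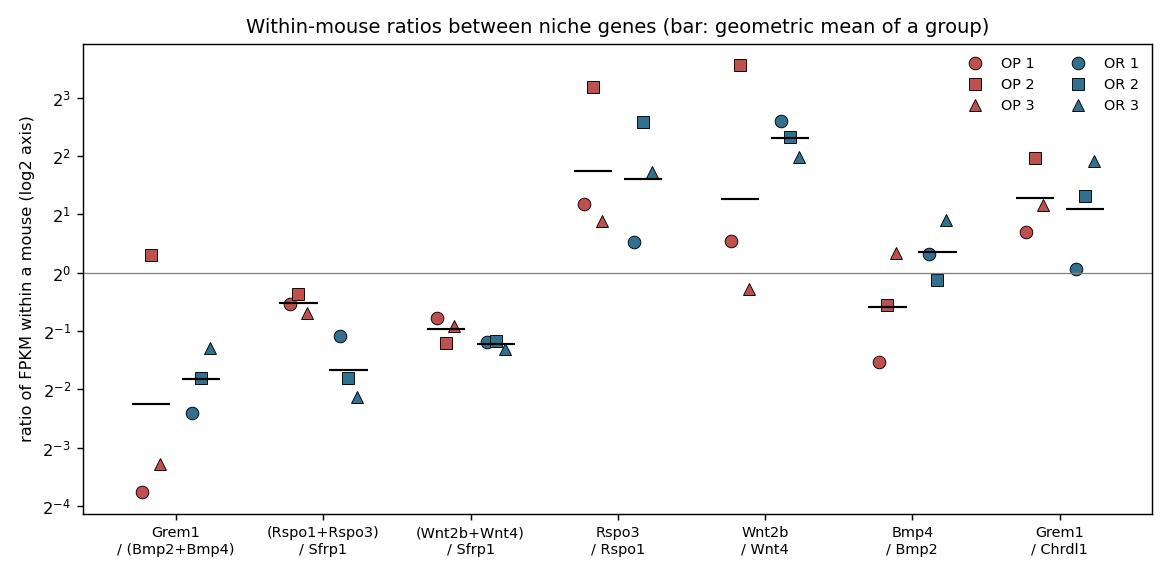
Ratios of FPKM within a mouse for 7 pairs or sums of members, on a log2 axis, with OP mice in red, OR mice in blue and the geometric mean of each group as a bar. R-spondins over *Sfrp1* is the ratio in which the groups did not overlap, and OP 2 lies far above the other mice in *Grem1* over the BMP ligands, at 1.24.

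Markers of stromal and vascular cells had lower values in the same mice as *Wnt2b* and *Sfrp1*. All 10 fibroblast markers had log2 fold changes below 0, with a median of -0.60 and 7 at an unadjusted p below 0.05, and their summed FPKM was 96.1 to 156 in OP mice and 227 to 359 in OR mice. All 8 blood endothelial markers were lower, with a median of -0.82 and sums of 13.3 to 22.2 against 25.3 to 44.6 FPKM. All 5 lymphatic endothelial markers tested were lower, with a median of -0.78 and sums, over all 6 listed, of 21.4 to 39.4 against 40.6 to 109.8 FPKM. The log2 fold change of *Wnt2b* minus the median of the list was -0.22 for fibroblasts and -0.01 for blood endothelium, and that of *Sfrp1* was -0.42 and -0.20. For smooth muscle the values were -0.50 and -0.70, and for epithelium -0.83 and -1.03. Minus the fibroblast median, *Rspo3* had 0.56, *Grem1* 0.34, *Bmp2* 0.95, *Bmp4* 0.11 and *Chrdl1* 0.28. Without OP 2, *Grem1* had -0.51 and *Chrdl1* -0.16 by the same measure. The part of these cells in the result was not tested.

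The 10 smooth muscle markers had a median of -0.32 with sums of 1576 to 2422 FPKM in OP mice and 1934 to 3520 in OR mice, which overlapped. Of the 6 markers of subepithelial telocyte-like fibroblasts, a source of Wnt and BMP ligands, all had log2 fold changes below 0 with a median of -0.56, and *Foxl1*, their defining factor, was at most 0.59 FPKM. Of these 6, 0 had an unadjusted limma-trend p below 0.05, and *Pdgfra* is also in the fibroblast list. Their sums overlapped, with 13.1 to 23.7 FPKM in OP mice, against 22.7 to 44.2 in OR mice. The 10 epithelial markers had a median of 0.01, with 4 below 0 and 6 above. In the 3 markers of the interstitial cells of Cajal, *Ano1* was at 38.96 FPKM in OP 2 and between 4.99 and 14.42 in the other mice, whereas *Kit* was highest in OR 3 at 24.92 FPKM and *Etv1* in OR 1 at 3.23 FPKM.

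The remaining lists were enteric glia and neurons with a median log2 fold change of -0.12, leukocytes with -0.64, adipocytes with -0.83 and mesothelium with -0.09 over 2 genes tested. Without OP 2 these medians were -0.09, -0.44, -0.22 and 0.27. For fibroblasts, blood endothelium and lymphatic endothelium they were then -0.63, -0.72 and -0.65, for telocyte-like fibroblasts -0.46, for smooth muscle -0.47 and for epithelium -0.06. *Adipoq*, *Plin1*, *Lep* and *Retn* of the adipocyte list were listed at 0 in OP 2. The markers of colon epithelium had a median of 0.14, and those of the small intestine -0.97 over 3 genes tested, or -0.38 without OP 2. Of these 3, *Sis* and *Fabp6* had log2 fold changes of -0.97 and -2.06, and *Alpi* had 0.64 with an unadjusted limma-trend p of 0.0158 and an adjusted p of 0.945.

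**Figure D5:**
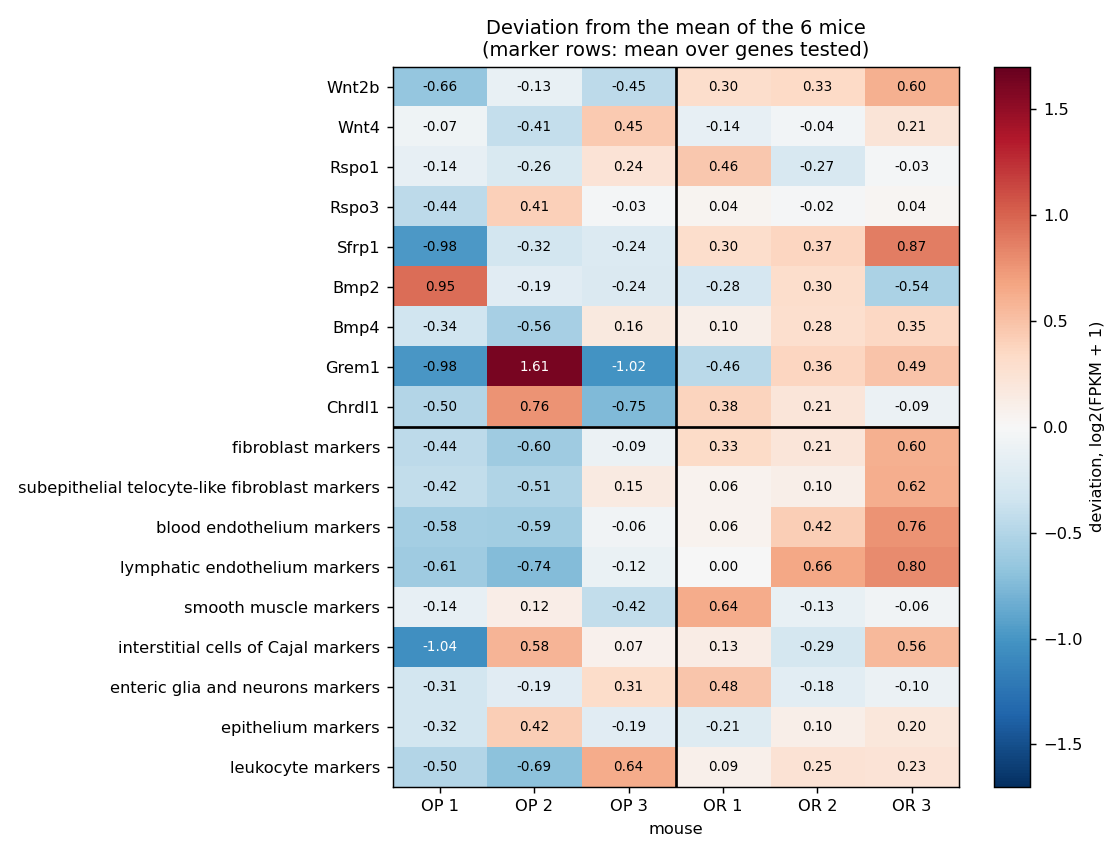
Deviation of log2(FPKM + 1) from the mean of the 6 mice for the 9 members (upper rows) and, as a mean over the genes tested, for 9 marker lists (lower rows), with 1 column a mouse. *Wnt2b* and *Sfrp1* were below 0 in all OP mice and above 0 in all OR mice. The means of the fibroblast and of the blood endothelial markers had the same signs, and *Grem1* and *Chrdl1* peaked in OP 2.

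The genes closest to the members were sought among 156 other tested genes of the pathway and marker lists, by the root mean square distance between deviations of log2(FPKM + 1) over the 6 mice. *Wnt2b* was nearest to *Fstl1* at a distance of 0.14, *Sfrp1* to the endothelial adhesion gene *Esam* at 0.14, and *Bmp4* to the macrophage gene *Cd68* at 0.13. *Chrdl1* was nearest to the BMP target *Id4* at 0.27, *Bmp2* to the inhibitory Smad gene *Smad7* at 0.25, and *Rspo3* to the Wnt inhibitor *Frzb* at 0.09. *Id4*, like *Chrdl1*, was highest in OP 2, at 6.78 FPKM. Among all genes, the mean profile of the 7 members was nearest to *Itgb3*, *Cks1b* and *Slc44a3*, at 0.07, 0.07 and 0.08, each with an adjusted limma-trend p of 0.945.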

How the data were processed

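Colon RNA of 3 OP and 3 OR mice had been sequenced on the DNBSEQ platform from mRNA-enriched, strand-specific libraries. Reads had been cleaned by SOAPnuke and aligned by Bowtie2, RSEM gave the gene levels, and the values deposited by the authors are FPKM with 2 decimals for 17778 gene symbols, 1 column per mouse. Versions of Bowtie2 and RSEM and the gene set differ between the methods and the labels, and the submitters' processing notes also name HISAT2 2.0.4 and GRCm39. Groups and replicate numbers came from the labels.

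Genes with at least 0.5 FPKM in at least 3 mice were kept (13520), and limma-trend (limma 3.58.1 in R 4.3.3) was fitted to log2(FPKM + 1) for OP minus OR, with no covariate and with Benjamini-Hochberg adjustment over all genes. Since FPKM are not counts, the DESeq2 test of the methods was not run. Single genes and ratios were also compared with two-sided exact permutation tests (SciPy 1.17.1), for which 3 against 3 mice give 20 arrangements and a smallest p of 0.1. FPKM carry no totals, so counting error is unknown, and scaling, pseudocount and filter could each change values. Alternatives tried were median-of-ratios scaling, limma with no trend, rescaling to TPM, another pseudocount, other filters, array weights, the replicate block and each mouse left out; the counts of members without OP 2 were added after the data had been seen.

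The members, gene lists and tests were chosen with earlier results of these data known. Named genes are the 9 members, pathway genes with an unadjusted p below 0.05 (at most 12), the most abundant gene of each pathway list and the nearest genes by profile; other genes were named after their values were seen, and 1 gene of this rule is not reported here. Promoters came from RefSeq by symbol (5 of 9 matched), and their coordinates are on GRCm38.p6.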

Additional observations from a re-analysis of the deposited data

How the results depend on the processing

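*Wnt2b*, *Bmp4* and *Sfrp1* had log2 fold changes below 0 under every alternative in which they were tested (limma without trend, median-of-ratios scaling, rescaling to TPM, a pseudocount of 0.1, other filters, array weights, the replicate block and each mouse left out; *Wnt2b* missed the filter of 1 FPKM in every mouse), and 0 members were called in any of them by limma. With each mouse left out the log2 fold change was -0.97 to -0.70 for *Wnt2b*, -1.16 to -0.79 for *Sfrp1*, -0.70 to -0.34 for *Bmp4*, -0.79 to -0.036 for *Chrdl1*, -1.13 to 0.18 for *Grem1*, -0.26 to 0.17 for *Rspo3* and -0.040 to 0.59 for *Bmp2*. *Rspo3* turned to 0.032 with median-of-ratios scaling and 0.13 with array weights, and *Grem1* to 0.36 with array weights. The cause was not tested. Median-of-ratios scaling moved the median of all genes from -0.10 to 0.01.

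Members lower at an unadjusted p below 0.05 numbered 2, and 2 to 4 with each mouse left out, the highest without OP replicate 2; with array weights they numbered 3 and with the filter of 1 FPKM or more in every mouse 1, since *Wnt2b* then left the test. The count of all genes called lower at a q-value below 0.2 was 3, and 0 with median-of-ratios scaling, rescaling to TPM, a pseudocount of 0.1, no filter, the filter of 1 FPKM in every mouse or the replicate block, 5 with array weights and 0 to 1 with each mouse left out. Genes lower at an unadjusted p below 0.05 numbered 477, 317 with the filter of 1 FPKM or more in every mouse and 231 to 1104 with each mouse left out.

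The median of the Wnt ligand list was -0.41, -0.77 with a pseudocount of 0.1 and -0.051 without the filter; with the filter of 1 FPKM or more in every mouse it held no gene. With that filter the median was -0.79 for the secreted Wnt inhibitors and 0.013 for the BMP ligands, over fewer genes. BMP receptors and Smads had -0.044 with median-of-ratios scaling. With each mouse left out the medians were -0.61 to -0.14 for the Wnt ligands (nearest 0 without OP replicate 2), -0.42 to -0.012 for the Wnt receptors (nearest 0 without OP replicate 1), -0.46 to 0.17 for the R-spondin list (above 0 without OP replicate 1), -0.59 to 0.087 for the secreted inhibitors, -0.57 to -0.085 for the BMP ligands and -0.26 to -0.0099 for the receptors and Smads. The log2 ratio difference was then 0.91 to 1.44 for R-spondins over *Sfrp1*, -1.69 to 0.35 for *Grem1* over BMP ligands, -0.58 to 0.62 for *Rspo3* over *Rspo1* and -0.34 to 0.58 for *Grem1* over *Chrdl1*.

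With the replicate block, *Wnt2b* had -0.82 with an adjusted p of 0.994 and *Sfrp1* -1.02 with 0.860. The numbers belong to different samples, and the deviations of same-numbered samples from their group means correlated at -0.144, -0.157 and 0.0709, so the numbers were not taken to pair them. Each of the 3 OP samples correlated best with an OR sample of another number.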

Other observations

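Several Wnt and BMP genes outside the 9 members parted the mice across the groups rather than between them. *Bmp8b*, a BMP ligand, had 5.34, 6.53 and 0.43 FPKM in OP mice, against 0.48, 3.74 and 1.07 in OR mice, so that OP 1, OP 2 and OR 2 were high. *Bmp3* ran the other way, with its highest values in OP 3 and OR 1. *Bmp5*, a ligand of the subepithelial mesenchyme, had 3.7, 0.74 and 4.77 FPKM in OP mice, against 3.69, 6.62 and 5.56 in OR mice, and its lowest value was in OP 2. *Wnt5a* was also lowest in OP 2, at 0.3 FPKM, and *Pdgfra*, the receptor that marks the mesenchymal cells beneath the epithelium, was at 1.42 FPKM there and between 4.14 and 8.55 in the other mice.

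Without OP 2, 6 non-member pathway genes had an unadjusted limma-trend p below 0.05, all lower in OP mice, and 0 were called. Among them were *Fstl1*, *Dkk3*, *Id4* with a log2 fold change of -0.78 (adjusted p = 0.772 by limma-trend), and the Wnt targets *Ephb2* and *Myc*. B cell genes were high in OP 3, where *Cd79a* was at 39.83 FPKM against at most 5.67 in the other mice and *Ms4a1* at 5.24 against at most 0.85.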
